A study of Homo sapiens with 32 samples.

Results

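The data were 6 arrays of the human lung cancer line H1299 that expressed GFP in place of a SMARCA2 cDNA. In 3 of them a short hairpin RNA (shRNA) called S2sh7 was directed at the ATPase domain of SMARCA2, and in the other 3 a control shRNA called shLuc, which targets luciferase, was carried. They were chosen by their titles out of the 32 samples of the series, which also holds the same knockdown in H1299 alongside SMARCA2 cDNA that was wild-type (WT), mutated in the bromodomain (BRD) or without ATPase activity (ATPdead), and in another lung cancer line, A549. All groups were untreated stable lines, and the H1299 arrays carry 1 batch label. Only 1 hairpin against SMARCA2 was used, so effects of that hairpin on other RNAs and effects of SMARCA2 loss cannot be told apart. The samples are called biological replicates, but no label ties them to separate cultures. The p-values therefore cover just the spread among arrays of a group, which may be technical. That spread was estimated over all 24 H1299 arrays, those with a SMARCA2 cDNA included. The small number of arrays limits precision. In such bulk RNA, fewer cells of a type and less RNA per cell cannot be told apart.

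SWI/SNF complexes remodel nucleosomes at promoters and enhancers, driven by SMARCA2 or by its paralog SMARCA4 as the ATPase. Cancer lines that have lost SMARCA4, as H1299 is known to have, depend on SMARCA2 for what remains of that activity. Interferon-stimulated genes, to which many of the genes below belong, are turned on through a DNA element bound by factors that interferon signalling activates, the interferon-stimulated response element (ISRE). Genes of the integrated stress response are turned on by ATF4 and CHOP through another element, the CARE, when translation initiation is slowed.

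Values are expression intensities on a linear scale, and a difference is given in log2. A gene was called when its adjusted p in limma was under 0.05, and an intensity under 32 (log2 of 5) is described as dim. SMARCA2 itself was read by 7 probe sets, of which 5 were bright enough to be tested, and 4 of these fell with S2sh7 while none rose. In the brightest the 3 shLuc arrays read 82.4, 89.9 and 81.0 and the 3 S2sh7 arrays 37.7, 36.5 and 29.0. The groups did not overlap, and the level with S2sh7 was 40.6% of the control (log2 difference -1.30, SE 0.103, adjusted p = 7.85e-09). The remaining level lay near the dim bound, so the true fall may have been larger. In A549 with GFP, with 1 array each, the control read 318 and the knockdown 35.1.

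The hairpin also went with lower RNA of the paralog. SMARCA4 read 182, 157 and 163 with shLuc and 106, 111 and 113 with S2sh7, which is 65.8% of the control (log2 difference -0.60, SE 0.066, adjusted p = 7.46e-07). Of 7 tested SMARCA4 probe sets 4 fell and none rose, against 14.3% of all tested probe sets that were called lower. In A549 with GFP SMARCA4 read 58.0 in the control and 66.9 in the knockdown, with no replicate. The plot of SMARCA2 and SMARCA4 probe sets by array shows each reading.

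**Figure D1:**
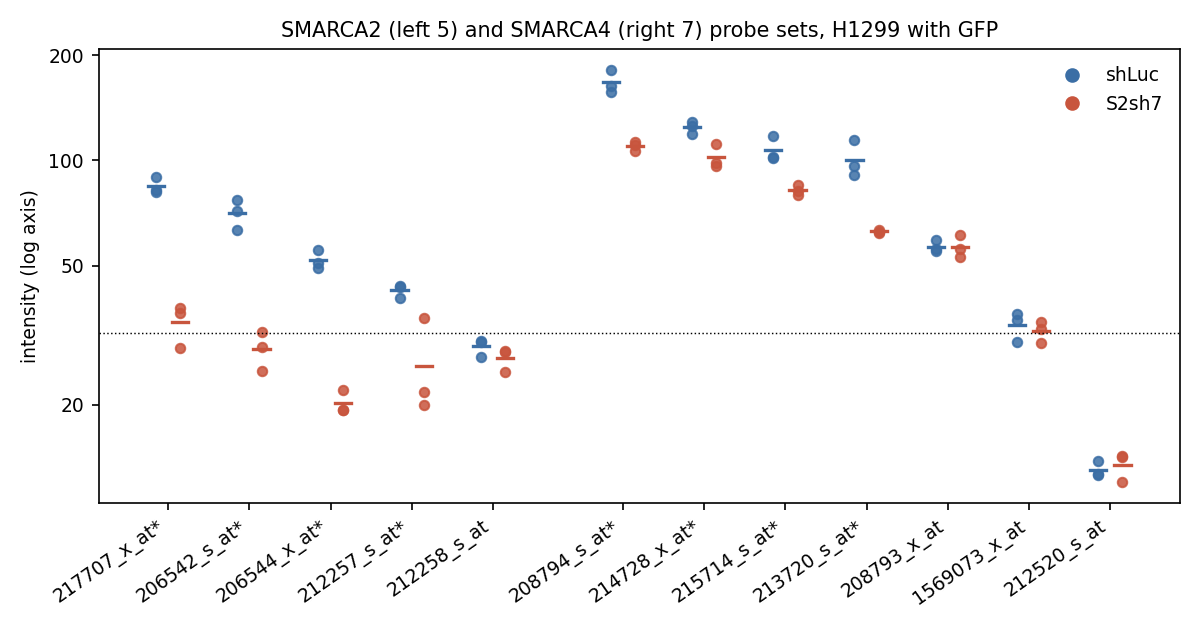
Intensity (log axis) of each tested probe set of SMARCA2 (left 5) and SMARCA4 (right 7) in the 3 shLuc and 3 S2sh7 arrays of H1299 with GFP; points are arrays, bars are group means, the dotted line marks an intensity of 32, and an asterisk marks an adjusted p under 0.05 in limma. In 4 SMARCA2 and 4 SMARCA4 probe sets all S2sh7 arrays lie below all shLuc arrays.

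Epithelial keratin genes and a mesenchymal filament gene were both bright in the line. KRT8 and KRT18, keratins of simple epithelia, read 1725 and 7907 on average with shLuc, and VIM, the intermediate filament of mesenchymal cells, 14112. CDH1 and EPCAM, other markers of epithelial cells, were dim at 5.32 and 7.27. Of 23 measured markers of leukocytes and endothelium 18 averaged under 32, PTPRC, CDH5 and KDR among them. Their summed intensity was nonetheless slightly higher with the knockdown, 420 to 437 over the shLuc arrays and 457 to 475 over the S2sh7 arrays, and 4 of 13 tested members were called higher (CD3E, GNLY, TEK and VWF, by 0.18 to 0.27 log2). That count ran from 0 to 5 over the alternative settings and left-out arrays, and it was 0 without shLuc replicate 1 or S2sh7 replicate 1. Fibroblast markers summed to 278 to 291 with shLuc and to 275 to 308 with S2sh7. RNA integrity, read as the log2 difference between 3' and 5' control probe sets of ACTB, was 0.232 to 0.254 with shLuc and 0.220 to 0.248 with S2sh7. The part of these differences in the results was not tested.

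In limma 4359 of 14695 tested genes were called (29.7%), 1999 higher (13.6%) and 2360 lower (16.1%). The counts of list members below stand against these shares. Most of these changes were small: the median of the called genes was 0.20 log2 among the higher and -0.23 among the lower. The large ones were mostly falls, since 344 genes fell and 86 rose by at least 0.5 log2, and 56 fell (0.381%) and 10 rose (0.0681%) by at least 2-fold. Beyond 1.5 log2 there were 9 falls and 2 rises. In 3143 genes (21.4%) all S2sh7 arrays lay below all shLuc arrays and in 3040 (20.7%) above them, and 2001 of those genes were not called. The balance of small changes rested on the scaling. It was 3316 higher and 1684 lower when each array was centred on its median, and 2547 and 2100 after repeated quantile normalization. Those of the 25 largest rises and falls that the text below names were called the same way under both, and the others were not followed.

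**Figure D2:**
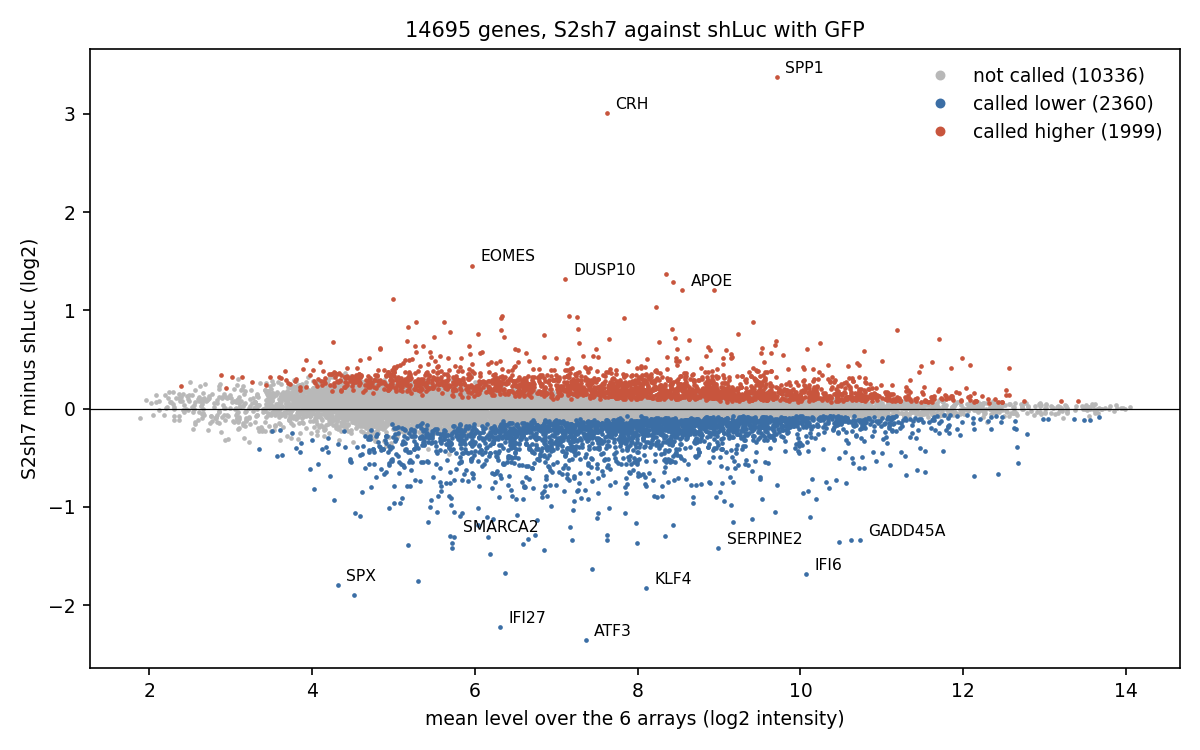
Log2 difference of S2sh7 minus shLuc (vertical) against the mean log2 intensity over the 6 arrays (horizontal) for 14695 genes; each point is a gene, coloured by its call in limma. SPP1 and CRH stand above all other genes, and more genes lie below -1 (56) than above 1 (10).

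The largest rise was in SPP1, which encodes osteopontin, a secreted ligand of integrins and of CD44. It read 259, 260 and 261 with shLuc and 2718, 2633 and 2717 with S2sh7, a 10.3-fold rise (log2 difference 3.37, SE 0.038, adjusted p = 5.93e-22). CRH, the hypothalamic peptide that starts the stress hormone axis, went from 67.7, 64.6 and 76.1 to 540, 567 and 563, or 8.03-fold (SE 0.067 log2, adjusted p = 9.84e-17). For both genes the arrays of a group lay close together and far from the other group. In A549 with GFP, with 1 array each, SPP1 read 5759 and 6034, and CRH read 14.3 and 30.6, both dim.

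The receptors of these ligands did not move to a like extent. Of 9 tested osteopontin receptors 3 were called higher and 3 lower (median 0.03 log2). The integrin subunits ITGAV (0.27) and ITGB1 (0.18) rose, CD44 (-0.16), ITGA5 (-0.40) and ITGB5 (-0.27) fell, and ITGA9 (0.31) was called higher from a dim level, but not when the 6 arrays were fitted alone (adjusted p = 0.0527). CRHR1, the receptor of CRH, was dim in both groups (26.7 and 28.8 on average; log2 difference 0.10, adjusted p = 0.596). Among 13 tested peptide genes 4 were higher and 3 lower, with the granule protein gene VGF at 0.48 and the vasodilator ADM at 0.88 on the higher side. SPX, which encodes spexin, dropped from 43.0, 36.9 and 32.6 to 9.73, 10.9 and 11.6, so its arrays with S2sh7 were all dim (log2 difference -1.80, SE 0.111, adjusted p = 2.15e-10). Its other tested probe set, dim in both groups, was not called (21.3 and 19.9 on average; log2 difference -0.10, adjusted p = 0.506 in limma). In A549 SPX read 550 and 47.6.

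Several transcription factors of development were among the 25 largest rises. EOMES, a T-box factor of early lineages and lymphocytes, rose from 36.3, 33.1 and 45.0 to 102, 97.4 and 112 (1.46 log2, SE 0.112, adjusted p = 5.83e-09), and it also read higher in A549 (55.7 and 502). MEF2C, a factor of muscle and neurons, went from 158, 161 and 178 to 297, 331 and 310 (0.92), and the homeobox gene HLX from 39.7, 37.7 and 41.5 to 67.3, 69.4 and 67.9 (0.78). Lack of overlap between the groups was a condition of the choice of these 25 rises. GBX2, another homeobox gene, and ARID5B, a chromatin-binding factor, rose by 0.83 and 1.11 from dim control levels of 27.5 and 21.8 on average, and ARID5B moved the other way in A549 (210 and 48.6). Across 28 tested lineage transcription factors 9 were higher, 4 lower and 15 not called (median 0.09 log2). SOX2 (0.49) was on the higher side, and SOX9 (-0.59), RUNX2 (-0.52) and MSX1 (-0.75) on the lower.

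BMP and WNT signalling had single large movers rather than a common direction. The ligand BMP6 went from 60.1, 61.5 and 60.5 to 121, 98.4 and 99.6 (0.80 log2, SE 0.102, adjusted p = 4.86e-06). ID2, a BMP target that blocks basic helix-loop-helix factors, went from 227, 208 and 226 to 528, 557 and 536 (1.29 log2, SE 0.053), and its relative ID3 rose by 0.20, with ID1 at -0.07 and not called. SMAD7, the inhibitor that switches the receptors off, fell from 160, 148 and 151 to 80.4, 84.2 and 87.9 (-0.86). Over 33 tested members of the BMP and TGF-beta list 6 were higher and 7 lower, not far from the 13.6% and 16.1% of all tested genes. DKK1, a secreted WNT antagonist, went from 324, 324 and 319 to 730, 719 and 780 (1.20 log2, SE 0.040), whereas the antagonists DKK3 (-0.69) and SFRP1 (-0.40) and the ligand WNT5B (-0.65) fell. No other member of the WNT list rose by over 0.4 log2, and of 28 tested 2 were higher and 8 lower.

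Brakes of MAP kinase signalling moved both ways. DUSP10, a phosphatase that inactivates p38 and JNK, rose from 80.5, 91.9 and 90.0 to 211, 221 and 221 (1.32 log2, SE 0.053, adjusted p = 4.24e-13). DUSP6, which inactivates ERK, rose by 0.54, the inhibitors SPRY2 and SPRY4 by 0.48 and 0.38, and ERRFI1, which blocks the EGF receptor, by 0.52. DUSP5, another ERK phosphatase, fell by 0.61. In all, 7 of 23 tested members were higher, 4 lower and 12 not called, against 13.6% higher and 16.1% lower over all tested genes. The EGF receptor ligands HBEGF (-0.91) and TGFA (-0.84) fell with the knockdown, from 218 to 116 and from 183 to 102 on average. EGFR itself was called slightly lower (-0.23) in 3 of 9 tested probe sets, and was not called without shLuc replicate 3 (adjusted p = 0.099) or S2sh7 replicate 1 (adjusted p = 0.0872), nor with its probe sets averaged (-0.05, adjusted p = 0.182).

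**Figure D3:**
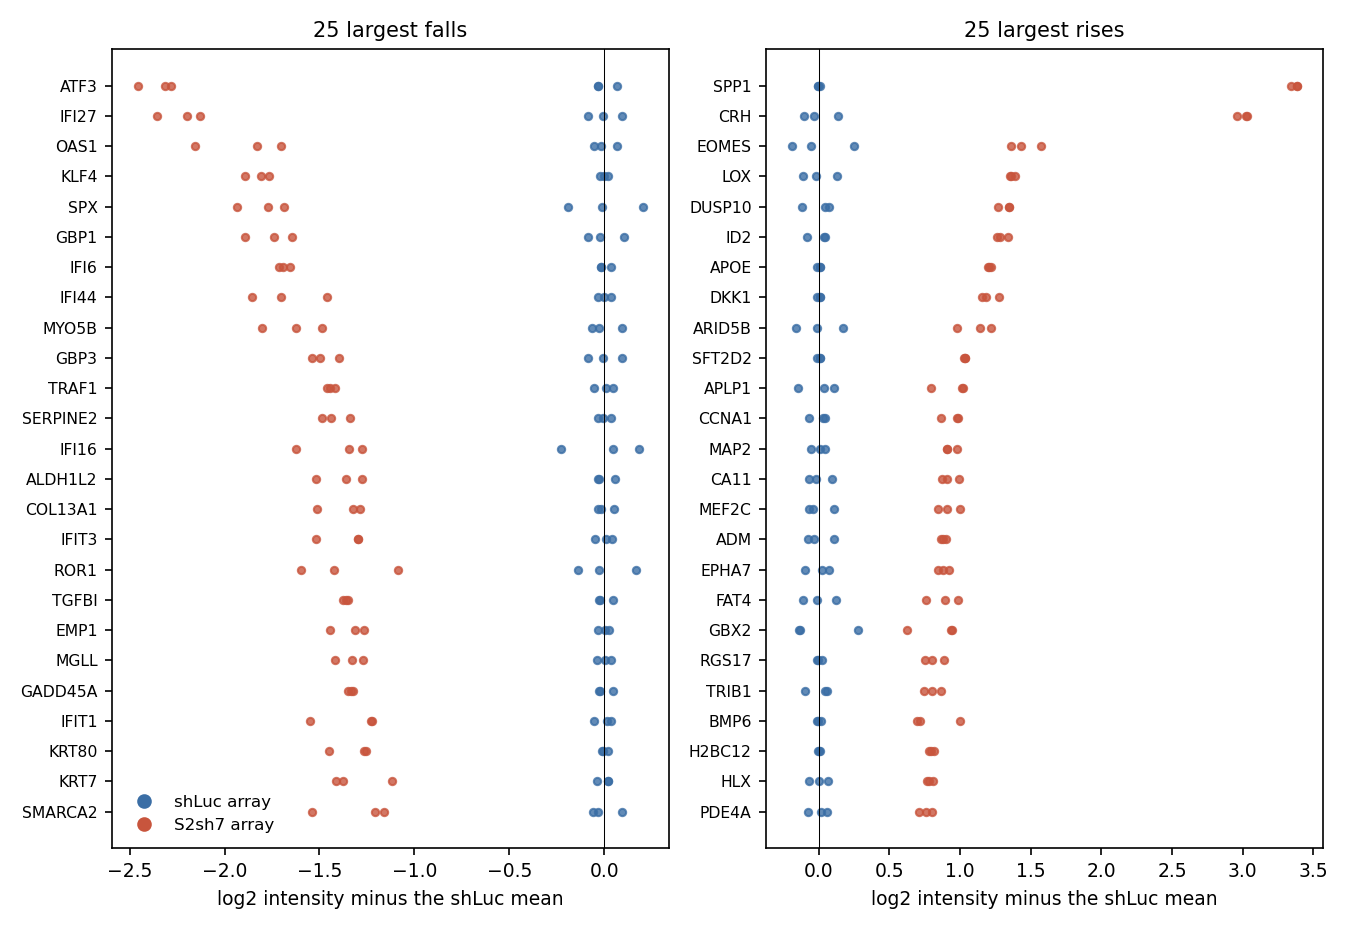
Log2 intensity of each array minus the mean of the 3 shLuc arrays, for the 25 largest falls (left) and the 25 largest rises (right) among called genes without overlap between groups; blue points are shLuc arrays and red points S2sh7 arrays. SPP1 (3.37) and CRH (3.01) are separated from EOMES (1.46), and the falls run from ATF3 (-2.35) to SMARCA2 (-1.30).

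Other genes among the 25 largest rises have varied roles. APOE, a lipid carrier, went from 247, 243 and 248 to 568, 573 and 563 (1.21 log2), SFT2D2 from 207, 210 and 210 to 426, 428 and 428 (1.03), and H2BC12, a histone H2B gene with near-identical copies, from 1780, 1775 and 1764 to 3071, 3042 and 3127 (0.80). The arrays of a group lay close together in each, while lack of overlap between groups was a condition of the choice. The receptor gene EPHA7 (0.88), the protocadherin FAT4 (0.88), the neuronal cytoskeleton gene MAP2 (0.93), cyclin gene CCNA1 (0.94), the phosphodiesterase PDE4A (0.76) and the signalling genes RGS17 and TRIB1 (0.81 each) also rose. Where a gene among the 25 largest rises had several tested probe sets, as 11 did, all were called higher in 10 and none was called lower in any. For the 25 largest falls these figures were 14 and 8, again with no probe set called the other way. Lack of overlap was a condition of the choice of these 25 falls too. ATF3, IFI27, IFI6, IFIT1, KLF4 and SMARCA2 are among them.

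Interferon-stimulated genes held many of the largest falls. IFI27 read 183, 170 and 161 with shLuc and 39.2, 33.5 and 37.3 with S2sh7 (log2 difference -2.23, SE 0.110, adjusted p = 7.9e-12). IFI6, a mitochondrial antiapoptotic protein and the brightest of these genes, went from 1973, 1902 and 1907 to 587, 597 and 613, or 31.1% of the control (SE 0.042 log2, adjusted p = 3.08e-16). IFIT1, which binds RNA that lacks a host cap, dropped from 321, 302 and 316 to 107, 133 and 134 (-1.33, SE 0.070). ISG15, a ubiquitin-like modifier, dropped from 1698, 1590 and 1582 to 711, 772 and 781 (-1.11, SE 0.056). Lack of overlap between groups was a condition of choosing IFI27, IFI6 and IFIT1 among the largest falls, though not of choosing ISG15. All 4 were far apart between groups. The ISRE, searched on both strands as GAAA, any 2 bases and GAAA again, lies in their promoters, which are printed below as the 250 bases before the transcription start in RefSeq (GRCh38.p14), because 42 of 56 tested effectors were called lower. Matches are in capitals.
IFI6 (chr1:27672193-27672442, minus strand, 3 matches): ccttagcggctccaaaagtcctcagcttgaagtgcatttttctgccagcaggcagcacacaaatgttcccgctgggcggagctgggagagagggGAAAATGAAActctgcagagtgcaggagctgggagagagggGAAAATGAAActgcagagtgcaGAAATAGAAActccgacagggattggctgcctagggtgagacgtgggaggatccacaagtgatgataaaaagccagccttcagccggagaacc
IFI27 (chr14:94110486-94110735, plus strand, 2 matches): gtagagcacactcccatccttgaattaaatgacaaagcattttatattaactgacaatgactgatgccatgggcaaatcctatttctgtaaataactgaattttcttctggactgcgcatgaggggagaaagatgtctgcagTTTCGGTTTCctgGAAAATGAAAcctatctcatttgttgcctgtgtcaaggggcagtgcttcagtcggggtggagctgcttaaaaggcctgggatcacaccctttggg
IFIT1 (chr10:89392373-89392622, plus strand, 2 matches): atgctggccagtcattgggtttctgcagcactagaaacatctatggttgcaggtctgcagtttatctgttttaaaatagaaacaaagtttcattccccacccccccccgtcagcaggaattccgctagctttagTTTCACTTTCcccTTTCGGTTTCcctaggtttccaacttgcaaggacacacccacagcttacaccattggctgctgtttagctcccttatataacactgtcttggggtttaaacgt
ISG15 (chr1:1013247-1013496, plus strand, 2 overlapping matches): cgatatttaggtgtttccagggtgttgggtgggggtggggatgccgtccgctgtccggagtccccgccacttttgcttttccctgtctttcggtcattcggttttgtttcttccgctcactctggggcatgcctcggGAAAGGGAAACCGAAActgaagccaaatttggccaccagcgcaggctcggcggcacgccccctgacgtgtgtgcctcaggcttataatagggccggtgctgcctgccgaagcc

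In IFI6 the first bases of the 3 matches lie 156, 115 and 93 bases before the start, and in IFI27, IFIT1 and ISG15 the matches lie side by side about 100 bases before it. IFI27 has another start, from which the same matches lie 187 and 174 bases away. Counted over the whole RefSeq window of 250 bases before and 50 after each start, the ISRE occurred in 29 of the 36 interferon effectors called lower that had a promoter sequence (80.6%) in 2 of 6 effectors not called and in TRIM5, the effector called higher. Among MHC class I genes it occurred in 7 of 11 called lower and in 2 of 3 not called. It occurred in 439 of 11727 tested genes with a promoter (3.74%), in 6.1% of the genes called lower and in 3.39% of those called higher. Of the 40 genes with a promoter that fell at least 2-fold, 12 held it (30%). A gene with several starts counts as holding a motif if any of its windows does. A match is a description of letters and not a measured site.

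The effectors fell in each of their roles. Of 56 tested, 42 were called lower, 1 higher and 13 not called (median -0.46 log2, against 0.01 over all tested genes). Among 12 genes that block translation or degrade RNA 9 fell, with OAS1 from 43.5, 42.5 and 46.2 to a dim 9.88, 12.4 and 13.5 (-1.90), IFIT3 at -1.37, IFIT2 at -1.28 and OASL at -1.08. Genes against virus entry and budding fell in 7 of 12 cases, with IFITM1 at -1.10, SAMD9 at -0.89 and BST2, which tethers virions and was dim with S2sh7, at -0.80. All 4 tested genes of the ISG15 pathway fell, including the conjugating enzyme UBE2L6 (-0.70). Of 28 further effectors 22 fell and none rose, led by IFI27, the guanylate-binding proteins GBP1 (-1.76) and GBP3 (-1.48), IFI6 (-1.69) and IFI44 (-1.67).

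Of the 14 effectors that were not called lower, 5 are given here. TRIM5, a restriction factor of retroviral capsids, was the effector called higher (65.0, 67.3 and 72.4 against 85.6, 95.4 and 75.9; 0.32 log2, adjusted p = 0.0041), but not when its probe sets were averaged (0.13, adjusted p = 0.137). OAS2 and MX2 were dim in both groups (21.9 and 20.5, and 16.8 and 19.2 on average) and were not called. ZC3HAV1, which degrades viral RNA, was bright, at 512 and 516 on average, and not called (log2 difference 0.01, SE 0.039), while the mean of its probe sets was called lower (-0.33, adjusted p = 6.91e-06). IFI35 was likewise measured well and not called (172 and 164; -0.07, SE 0.048).

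Upstream of these effectors the picture was mixed. None of the 9 interferon genes with a probe set reached the level needed for a test, and 4 of 6 receptor subunits were called slightly higher, with IFNAR1 at 0.30, IFNLR1 at 0.29 and IFNGR1 the member called lower (-0.20). Of 6 tested nucleic acid sensors 5 fell: IFI16, a DNA sensor, from 97.7, 88.9 and 73.7 to 28.0, 34.0 and 35.6 (-1.41, SE 0.104), the RNA sensors IFIH1 (-0.74) and RIGI (-0.41), EIF2AK2 (-0.26) and CGAS (-0.30). The adaptor STING1 fell from 98.4 to 67.1 on average (-0.55), with MAVS and TBK1 at -0.10 and 0.001 and not called. Among factors that switch on these genes, IRF9 (232, 210 and 216 against 109, 126 and 136; -0.83), IRF7 (-0.64) and IRF1 (-0.63) fell, and IRF3 rose (0.31). USP18, which limits the response, fell by 0.70.

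Genes that present peptides on MHC class I fell with the effectors, which share their regulators. Of 17 tested 13 were lower, none higher and 4 not called (median -0.42 log2). HLA-B went from 3730, 3655 and 3726 to 2307, 2347 and 2434 (-0.65, SE 0.027, adjusted p = 6.79e-13), although class I genes are alike enough in sequence that a probe set may read several. The shared light chain B2M fell by 0.39 from the highest level of the list (7407 to 5648 on average), the immunoproteasome subunit PSMB8 from 353, 354 and 355 to 207, 220 and 199 (-0.77), and the peptide transporter TAP1 by 0.44. CALR and PDIA3, chaperones that load class I and also serve other proteins, stood at -0.04 and -0.03 and were not called.

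**Figure D4:**
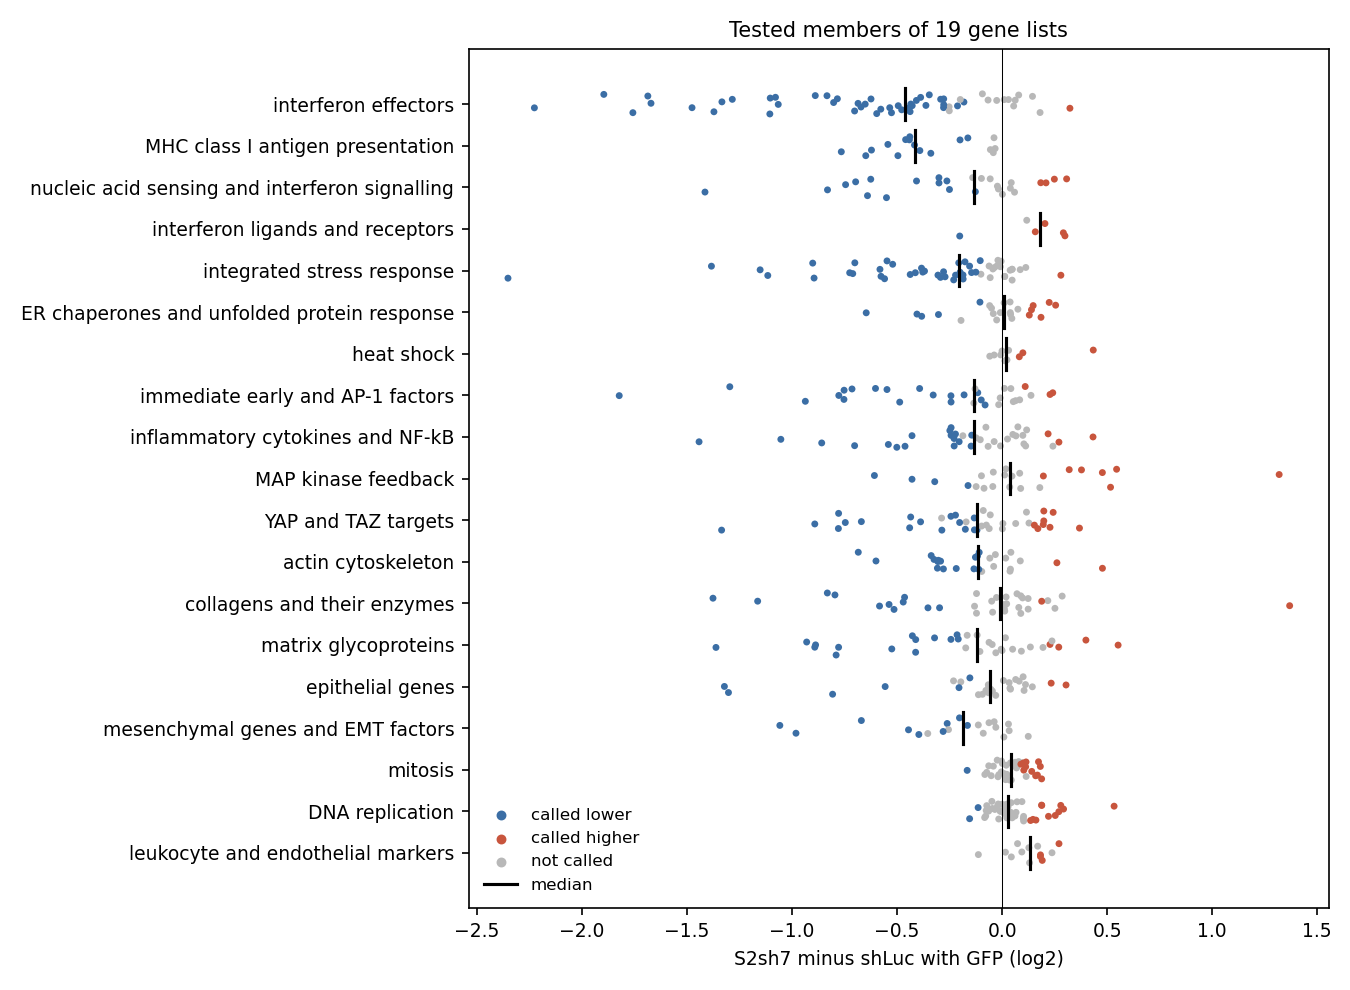
Log2 difference of S2sh7 minus shLuc with GFP for the tested members of 19 gene lists; each point is a gene, coloured by its call, and the black bar is the list's median. The medians of the interferon effectors (-0.46) and MHC class I genes (-0.42) lie furthest from the 0.01 of all genes.

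ATF3, a stress-induced repressor, had the largest fall of all tested genes. It read 390, 364 and 364 with shLuc and 67.8, 76.5 and 74.9 with S2sh7, 19.6% of the control (log2 difference -2.35, SE 0.054, adjusted p = 1.37e-16), and 301 and 140 in A549. Another tested probe set of ATF3 stood at -1.68, and a tested probe set dim in both groups was not called (-0.17). CHAC1, which degrades glutathione and is a target of ATF4 and ATF3, dropped from 294, 253 and 255 to 119, 128 and 123 (-1.12, SE 0.065). Neither gene's groups came near each other, though lack of overlap was a condition of ATF3's place among the largest falls. The CARE, searched as TGATGNAA on both strands, lies in the promoters of both, printed here as the 250 bases before the start in RefSeq (GRCh38.p14) with the match in capitals. ATF3 has another start whose window holds no match.
ATF3 (chr1:212565157-212565406, plus strand): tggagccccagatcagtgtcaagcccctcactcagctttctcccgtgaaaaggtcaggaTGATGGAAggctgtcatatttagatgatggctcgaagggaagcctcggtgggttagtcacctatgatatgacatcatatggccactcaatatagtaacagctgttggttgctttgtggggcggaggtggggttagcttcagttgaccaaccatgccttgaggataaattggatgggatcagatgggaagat
CHAC1 (chr15:40953221-40953470, plus strand): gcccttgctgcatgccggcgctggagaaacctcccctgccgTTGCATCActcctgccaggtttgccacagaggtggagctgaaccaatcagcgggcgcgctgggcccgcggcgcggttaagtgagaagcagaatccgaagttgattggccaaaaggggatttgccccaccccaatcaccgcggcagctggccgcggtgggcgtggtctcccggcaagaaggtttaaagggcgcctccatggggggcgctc

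The CARE occurred in 12 of the 28 integrated stress response genes called lower that had a promoter (42.9%), in 3 of 13 not called, and in 2.94% of tested genes with a promoter. The ISRE occurred in 1 of those 28.

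Most of the integrated stress response list fell, but not the factor at its head. Of 52 tested genes 34 were lower, 1 higher and 17 not called (median -0.20 log2). ATF4, whose activity is set at translation, read 2313, 2330 and 2313 with shLuc and 2221, 2211 and 2233 with S2sh7 and was not called although the arrays did not overlap (-0.06, adjusted p = 0.0717). ATF5 stood at 0.05 and was not called either. DDIT3, which encodes CHOP, fell from 729, 670 and 642 to 370, 366 and 355 (-0.90, SE 0.046), and CEBPB (-0.38) and NUPR1 (-0.58) fell less.

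Among the kinases that start this response, EIF2AK3 stood at -0.10, EIF2AK4 at 0.09 and EIF2AK1 at 0.01, none of them called. EIF2AK2, another of these kinases, was called lower, as given above with the nucleic acid sensors. PPP1R15A, which ends the response by restoring eIF2 alpha, fell from 204, 177 and 192 to 110, 127 and 113 (-0.71). Of 20 target genes 15 fell and none rose. ALDH1L2, a mitochondrial folate enzyme, went from 57.1, 60.9 and 57.4 to a dim 22.8, 24.1 and 20.4 (-1.38), DDIT4, an inhibitor of mTORC1, from 975, 771 and 840 to 429, 359 and 373 (-1.15), TRIB3 fell by 0.89, CTH by 0.73 and SESN2 by 0.70. In A549 ALDH1L2 moved the other way (19.7 and 45.2). Amino acid transporters fell in 4 of 7 cases, with SLC3A2 at -0.55 and SLC1A4 the member called higher (0.28), and tRNA synthetases in 7 of 12, none by over 0.4 log2.

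Counts in other stress pathways differed by role. Of 16 endoplasmic reticulum chaperones 5 were higher, 1 lower and 10 not called, and of 10 heat shock genes 3 were higher and none lower, HSPB1 by 0.43. Of 7 sensors and factors of the unfolded protein response 4 were lower and 1 higher (median -0.30 log2), with XBP1 at -0.65 and HERPUD1 at -0.38. Of 28 NRF2 targets, which answer oxidative stress, 6 were higher, NQO1 (0.24) and HMOX1 (0.30) among them, and 9 lower, led by the exporter ABCC3 (-0.75).

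Immediate early genes fell more often than they rose, 18 against 3 of 31 tested. KLF4, a factor of epithelial differentiation, went from 509, 516 and 523 to 139, 147 and 152 (-1.82, SE 0.050, adjusted p = 1.41e-15), with A549 the other way (202 and 348). IER3 went from 525, 496 and 504 to 201, 212 and 208 (-1.30) and EGR1 from 752, 759 and 700 to 382, 383 and 390 (-0.94). These groups were fully apart, which for KLF4 was a condition of the choice among the largest falls. Of 12 AP-1 genes 7 fell, MAFF (-0.78), FOS (-0.75), FOSL1 (-0.71) and FOSL2 (-0.60) the most, and JUNB (0.05) and JUND (0.06) were not called. The AP-1 letters TGANTCA occurred in 9.74% of the promoters of genes called lower, 6% of those called higher and 7.44% of tested genes.

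Of 21 NF-kB receptors and factors 14 were lower and 2 higher, with the adaptor TRAF1 from 196, 191 and 183 to 69.7, 71.0 and 68.9 (-1.44, SE 0.067), and the inhibitors NFKBIE (-0.86), TNFAIP3 (-0.70) and NFKBIA (-0.46). Of 15 cytokines and chemokines 3 were lower, IL32 (-1.05) the most, 11 were not called, and CXCL2 was higher (0.43).

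Matrix genes were split. LOX, which cross-links collagen and elastin, rose from 222, 188 and 201 to 522, 520 and 532 (1.37 log2, SE 0.056), while its relatives LOXL2 (397, 362 and 374 against 168, 166 and 172; -1.16) and LOXL1 (-0.46) fell and LOXL3 and LOXL4 were not called (0.09 and 0.12). In A549 LOX was dim (6.50 and 8.16). Of 23 collagen chains 8 fell and none rose, the transmembrane collagen COL13A1 from 153, 151 and 160 to 63.5, 54.3 and 61.9 (-1.38). The other tested probe sets of COL13A1 stood at -0.28, called lower, and at -0.08, not called. Of 33 matrix glycoproteins 14 fell and 4 rose. TGFBI, an integrin-binding protein induced by TGF-beta, went from 2366, 2249 and 2250 to 898, 880 and 891 (-1.36, SE 0.033), THBS1 and FSTL1 fell by 0.89 each, VCAN rose by 0.55, and fibronectin (FN1) was not called (-0.11, adjusted p = 0.0977).

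Of 13 tested proteases 4 were lower, 2 higher and 7 not called, and of 6 inhibitors and receptors 4 were lower and 1 higher. SERPINE2, an inhibitor of thrombin and urokinase, went from 828, 813 and 854 to 307, 329 and 297 (-1.42, SE 0.044), SERPINA1 fell by 1.12 and the urokinase gene PLAU by 0.73. The collagenase MMP1 rose from 66.7, 62.8 and 62.1 to 98.7, 118 and 101 (0.72), and TIMP1 by 0.38. In all 8 of 19 tested members were lower and 3 higher, against 16.1% lower and 13.6% higher over all tested genes.

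Of 28 tested targets of YAP and TAZ, factors that respond to cell shape, 16 fell and 4 rose. GADD45A, which is also induced by p53 and by stress, went from 2793, 2652 and 2659 to 1061, 1071 and 1080 (-1.34, SE 0.033), although H1299 is known to lack p53, and the receptor kinase AXL from 6893, 6992 and 6885 to 4337, 4333 and 4384 (-0.67). The target most used as a readout, CCN2, rose slightly (0.23), and YAP1 itself rose by 0.20. In A549 GADD45A read 571 and 2548. Of 26 actin cytoskeleton genes 15 fell and 2 rose, with tropomyosin TPM1 at -0.68 and TAGLN2 at -0.60 against CAV1, a coat protein of caveolae, at 0.48. CAV1 made up most of the alveolar list's summed intensity, which was 3613 to 3774 with shLuc and 4667 to 4824 with S2sh7, and 8 of the 10 tested alveolar genes were not called.

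Of 6 tested keratins 4 fell and none rose. KRT7 went from 113, 114 and 109 to 42.1, 51.7 and 43.1 (-1.30, SE 0.081), KRT80 from 161, 158 and 157 to 58.2, 66.1 and 66.6 (-1.32), and KRT8 and KRT18 fell by 0.81 and 0.56. The other tested probe sets of KRT7 stood at 0.06 and 0.11 and were not called. KRT19 was dim and KRT5 close to the dim bound, and neither was called. Of 24 junction genes 2 were higher, OCLN (0.30) and CLDN1 (0.23), 2 lower and 20 not called. Of 20 mesenchymal genes 9 fell and none rose, with SNAI2, a repressor of epithelial genes that was dim with S2sh7, at -1.06, S100A4 at -0.98 and VIM not called (0.03). The summed epithelial list, most of it KRT18 and KRT8, was 13653 to 13680 with shLuc and 10091 to 10192 with S2sh7, and the mesenchymal list 34926 to 35365 and 31222 to 31449.

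Cell cycle genes moved little. Of 38 mitotic genes 11 were higher, 1 lower and 26 not called, none beyond 0.2 log2, for example MKI67 at 0.19. Of 44 DNA replication genes 11 were higher and 2 lower, with DSCC1, a clamp loader subunit, at 0.53 and MCM6 at 0.29. With each array centred on its median these counts were 19 and 0 of 38, and 20 and 1 of 44. Only 7 mitotic genes were higher without shLuc replicate 2, and 6 when the 6 arrays were fitted alone. Cyclin D1 (CCND1) fell by 0.41 and the inhibitor CDKN1A rose by 0.19. Of 35 hypoxia and glycolysis genes 8 were higher and 13 lower, with ADM (0.88), the vasodilator named above, against STC1 (-0.80), VEGFA (-0.54), the glucose transporter SLC2A1 (-0.55) and PKM (-0.50). These counts were 5 higher with probe sets averaged and 8 lower with the 6 arrays fitted alone.

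Other subunits of SWI/SNF complexes changed by small amounts. Of 27 tested 6 were higher and 3 lower, with the BAF subunit ARID1A at 0.21, SMARCD3 at 0.36 and DPF1 at -0.41, and none of the 4 subunits specific to PBAF was called. With centred arrays 11 were higher and 1 lower. Of 15 other remodelers 3 were higher and 3 lower, CHD2 (-0.42) the most. Both sets of counts are not far from the 13.6% higher and 16.1% lower over all tested genes.

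Whether added SMARCA2 changed the effect of the hairpin was tested as the difference between the knockdown effect with a cDNA and that with GFP. In the brightest SMARCA2 probe set, control means were 84.4 for GFP, 78.3 for WT, 88.1 for BRD and 83.7 for ATPdead. Knockdown means there were 34.4, 39.0, 32.7 and 38.1, with no sign of added RNA. A dimmer probe set read 42.6 in GFP controls and 121, 107 and 109 in WT, BRD and ATPdead controls. Another read 51.9, 72.2, 69.4 and 74.8 in that order. Persistence of the added forms under the hairpin, and their protein, were not tested. All 66 genes that moved at least 2-fold with GFP were called the same way with each cDNA, in arrays that are not shared with the GFP comparison. Their falls were shallower there: the median of the 56 falls was -1.29 with GFP, -0.80 with WT, -0.89 with BRD and -1.07 with ATPdead, though the genes had been chosen for a large fall with GFP. The difference itself was called in 335 genes with WT (2.28%), 82 with BRD (0.558%) and 9 with ATPdead (0.0612%). All 3 differences share the 6 GFP arrays. With WT 268 differences were positive (1.82%) and 67 negative (0.456%), but 128 and 181 with centred arrays and 218 and 106 after quantile normalization.

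Interferon effectors had a called difference more often than all tested genes. With WT 25 of 56 were called positive, meaning less of a fall, and none negative, against 1.82% and 0.456% of all genes. Counts of differences within a list were not repeated with other scalings of the arrays. With BRD 8 of 56 were positive, where over all genes 0.388% were positive and 0.17% negative, and with ATPdead 2 of 56, against 0.0476% and 0.0136%. The median difference over the list was 0.30, 0.12 and 0.05 log2 in that order, against 0.01, 0.005 and 0.02 over all genes. IFI6 read 1927 (SD 39.4, n = 3) with shLuc and 599 (SD 12.8, n = 3) with S2sh7 when GFP was expressed, and 1394 and 1207 on average with WT, a difference of 1.48 log2 (adjusted p = 1.04e-11). The gap with WT was thus narrower from both sides, with a lower control and a higher knockdown level. OAS1 followed the same course, from 44.0 and a dim 11.9 with GFP to dim values of 29.8 and 19.8 with WT (difference 1.30, adjusted p = 0.00025). MHC class I genes had 7 positive differences of 17 with WT, 1 with BRD and 0 with ATPdead.

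The integrated stress response list gave a smaller share. With WT 3 of 52 differences were called, all positive, ATF3 (0.80, adjusted p = 7.39e-06) and CHAC1 (0.37) among them, with BRD 1 (ATF3, 0.68) and with ATPdead 0. ATF3 read 448 with shLuc and 153 with S2sh7 in WT lines, and 373 and 73.1 in GFP lines. DDIT3 (0.17, adjusted p = 0.205) and TRIB3 (0.17, adjusted p = 0.0931) had no called difference with WT. Outside these lists the falls of SERPINE2 (0.77), KLF4 (0.72) and EMP1 (0.42), a membrane protein of epithelial cells, were smaller with WT, and so was the rise of LOX (-0.54). With BRD the differences of these genes were called too, at 0.34, 0.57, 0.45 and -0.43 in that order. With ATPdead none of them was called. The rise of MAP2 was larger with WT (0.51), from a lower control level (71.1 against 110). SPP1 was called with all 3 cDNAs (-0.34, -0.52 and -0.48), and its level with S2sh7 was 2690 with GFP against 1786, 1792 and 1940 with WT, BRD and ATPdead.

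**Figure D5:**
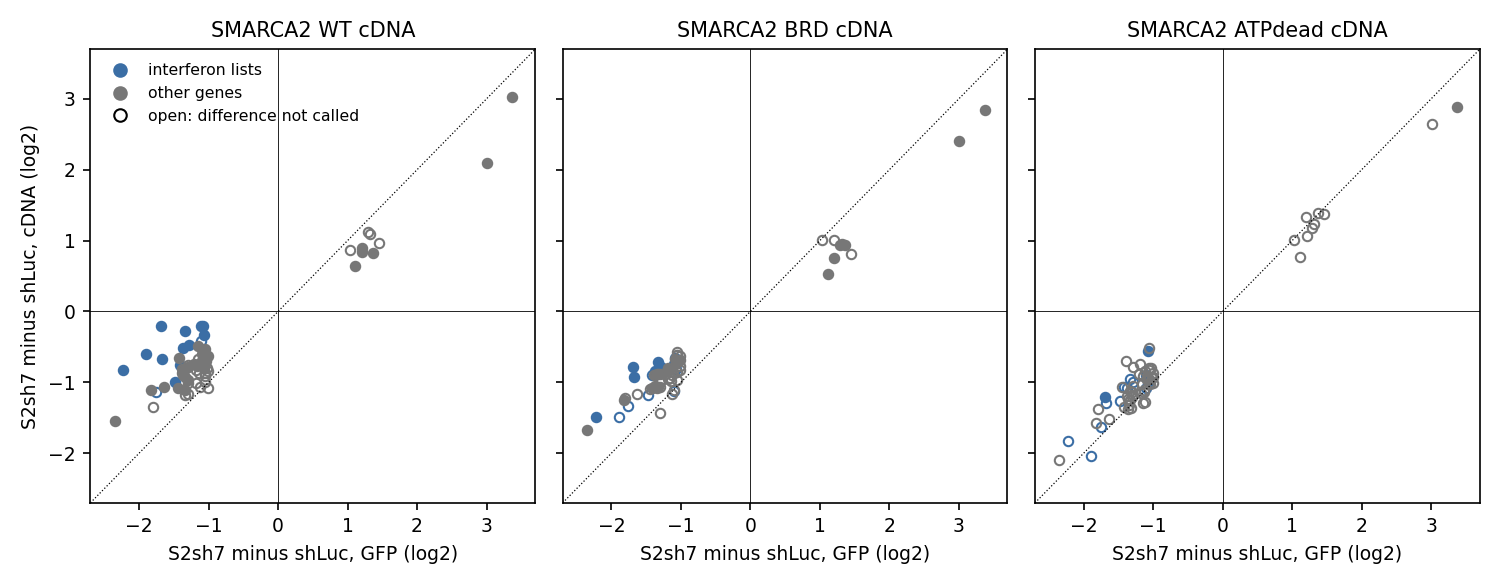
Log2 difference of S2sh7 minus shLuc with a SMARCA2 cDNA (vertical) against the same with GFP (horizontal) for the 66 genes called and changed at least 2-fold with GFP; filled points have a called difference between the 2 effects, open points do not, blue marks members of the interferon effector, sensing and signalling lists, and the dotted line marks equal effects. With WT 12 of the 14 blue points are filled, with BRD 8 and with ATPdead 2. Of the 52 grey points 28, 19 and 1 are filled in the same order. The genes were chosen for a large effect with GFP, and the difference uses that same effect.

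The A549 arrays were treated as a different batch from H1299 and kept out of the fit, so levels of the lines may also differ by batch. In A549 with GFP, where each group is 1 array and no test was made, 18 of the 25 largest rises and 20 of the 25 largest falls had the same sign. Any difference counted, however small, as in BMP6 (212 and 213), and also in dim genes such as LOX (6.50 and 8.16). The share of the same sign over all tested genes was not counted, so these counts have nothing to stand against. The membrane protein gene EMP1 (131 and 18.3), the lipase MGLL (835 and 77.3), the myosin MYO5B (441 and 115), KRT80 (286 and 50.1) and GBP3 (151 and 13.6) were lower there by more than in H1299, where EMP1 went from 2442, 2505 and 2544 to 1006, 1038 and 916, MGLL from 233, 237 and 226 to 86.8, 92.4 and 96.1 and MYO5B from 325, 292 and 299 to 87.6, 109 and 99.1. FAT4 (19.1 and 299) and MAP2 (62.3 and 356) were higher by more. KLF4, GADD45A, ALDH1L2 and TRAF1 (49.6 and 75.4) were higher with S2sh7 in A549 and lower in H1299.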

How the data were processed

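The arrays were of the Affymetrix HG-U133 Plus 2.0 design. The deposited values are intensities on a linear scale. The submitters' processing notes name RMA and limma, without versions. Here log2 was taken with no pseudocount. A gene was read by its brightest probe set, judged by the mean of all 32 arrays. Of 19775 genes, 14695 (74.3%) exceeded log2 5 on 3 or more arrays and entered the test. The 24 H1299 arrays, 8 groups of 3 in 1 labelled batch, were fitted in limma 3.58.1 (R 4.3.3) with 1 mean per group, default eBayes and Benjamini-Hochberg adjustment over all tested genes. Replicates correlated at 0.9974 to 0.9981, arrays of different groups at 0.9949 to 0.9963, and the median residual SD was 0.0703 log2. No list was tested as a set; 39 lists are described by counts and medians. The members and lists were chosen with earlier results of these data known.

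Named genes were SMARCA2, SMARCA4, SPP1, CRH, ATF3 and IFI27, the 25 largest rises and falls among called genes without overlap, up to 8 called and 3 not called members of each list, members of roles of up to 15 genes, and the 10 largest differences per direction and cDNA. Probe sets with several or no symbols (1801 and 11777 of 54675) were left unnamed. Promoters of 11727 tested genes (79.8%) came from RefSeq. On simulated data for the GFP comparison, over 14695 genes, 66% of genes shifted by 0.25 log2 were recovered, 90% of those shifted by 0.5 and 100% of those shifted by 1, with 11 of 14495 unchanged genes called. Alternatives are given in the closing section. Figures were drawn with Python and matplotlib.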

Additional observations from a re-analysis of the deposited data

Results flagged for a closer look

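The effect of S2sh7 differed between H1299 cells with WT SMARCA2 and with GFP in 335 genes, by the test of the difference in limma. With BRD it differed in 82 genes and with ATPdead in 9. In probe sets that carry no gene symbol or several, which no comparison above used, 1039 of 5300 tested were called with GFP (422 higher and 617 lower, 19.6%). These are values of the fit, and their part in the other results was not tested.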

How the results depend on the processing

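The count of 4359 called genes was 3496 to 4093 when 1 array was left out and 3251 from the compared arrays alone. It was 8083 over single probe sets and 66 with at least a 2-fold change. Called list members, 430 of 880 tested, were 391 to 429 when 1 array was left out and 370 from the compared arrays alone. In each of these leave-out and compared-array fits 8 probe sets of the 2 ATPases were called. The 335 differences with WT were 147 to 307 when 1 array was left out (147 without shLuc GFP replicate 1, 169 and 200 without shLuc WT replicates 2 and 1, 175 without S2sh7 GFP replicate 1, 210 without S2sh7 WT replicate 2), 214 with no filter, 532 with trend and robust eBayes, 148 from the compared arrays alone and 4 with a 2-fold change. The 82 with BRD were 52 to 73 (52 without S2sh7 GFP replicate 1), 54 with probe sets averaged per gene, 180 with trend and robust eBayes, 19 from the compared arrays alone and 0 with a 2-fold change. The 9 with ATPdead were 4 to 12 (4 without replicate 1 of shLuc GFP or shLuc ATPdead or replicate 2 of S2sh7 ATPdead, 5 without shLuc GFP 3, shLuc ATPdead 2 or 3, or S2sh7 GFP 1 or 3), 3 with the mean of probe sets, 5 with no filter, 50 with trend and robust eBayes, 2 from the compared arrays alone and 0 with a 2-fold change; the cause was not tested. Replicate numbers did not pair the samples (correlations of deviations -0.175, -0.186 and -0.0172); with the replicate block 4260 genes were called with GFP and 5 differences with ATPdead. Of 2444 values of 164 called genes named here, 28 in 8 genes lost the call and none turned; 1 gene not called, ZC3HAV1, went from 0.01 to -0.33 with probe sets averaged.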
